A study of Homo sapiens with 6 samples.

Results

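The genes described here encode golgins, the COG and TRAPP tethering complexes, the SNARE proteins of the Golgi apparatus and the YIP family of Golgi membrane proteins. The list held 59 genes, and 56 of them were measured among 18132 genes in all. A gene was read from probe sets whose annotation named that gene and no other, and the probe set with the highest mean over all arrays stood for it. USO1 (p115) had no such probe set, COG8 and SEC22B were named only together with other genes, and the 3 were not analysed here. The list was drawn up with the response to CDKL1 shRNA in these same arrays known. Counts, changes and adjusted p-values of its members in that comparison are therefore a description and give no independent evidence that Golgi genes respond.

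The cells were DLD1, an established line from a human colorectal adenocarcinoma. They were infected with lentivirus expressing a short hairpin RNA (shRNA), which directs degradation of a matching transcript, either against CDKL1, a serine/threonine kinase related to the cyclin-dependent kinases, or as a control. Each group had 3 samples, each on 1 Affymetrix array, and both groups carried a lentivirus and were grown in the same medium. The labels call the samples of a group independent without naming separate infections, and give no hairpin sequence, no number of hairpins and no time after infection, so 1 hairpin or several cannot be told apart.

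Membrane traffic through the Golgi proceeds by vesicles that bud from one membrane, are caught by tethers at the next and then fuse. Golgins are long coiled-coil proteins that reach out from Golgi membranes to capture vesicles and to hold cisternae together, while COG and TRAPP are multisubunit tethers, TRAPP also acting as the exchange factor that switches on RAB1 GTPases. SNAREs on vesicle and target membranes zip into a bundle that drives fusion, and YIP proteins are membrane-spanning proteins that cycle between the endoplasmic reticulum (ER) and the Golgi.

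Levels are log2 expression values, on which a difference of 1 is a 2-fold difference, and the medians of the 6 arrays were between 6.64 and 6.70. Markers of colon epithelium were above the background controls for 12 of 12 genes, of which KRT20 and ELF3 rose and VIL1 fell, and their summed level was 16.10 to 16.11 in the control arrays and 16.03 to 16.06 in the CDKL1 shRNA arrays. Of the fibroblast, leukocyte and endothelial markers, 4 of 7, 3 of 6 and 3 of 5 measured genes were also above the background control probe sets (2.97 to 4.92), and none of these 3 lists had a gene past the test. Their summed levels were 8.03 to 8.17, 7.38 to 7.44 and 8.12 to 8.20 in the control and 7.96 to 8.17, 7.28 to 7.39 and 8.12 to 8.18 in the CDKL1 shRNA arrays. Within the background range were PTPRC, MS4A1 and LYZ of leukocytes, COL3A1, DCN and LUM of fibroblasts, and CDH5 and TEK of endothelium. The CDKL1 probe set itself read 4.51, 4.42 and 4.17 in the control arrays and 4.25, 4.20 and 4.08 in the CDKL1 shRNA arrays, also within the background range, so it does not check the knockdown. The 3′ minus 5′ difference of the ACTB control probe sets, which grows as RNA degrades, was 1.40 ± 0.013 (SD, n = 3) in the control and 1.60 ± 0.115 in the CDKL1 shRNA arrays (exact two-sided permutation test, p = 0.1, the smallest that 3 against 3 can give). That of GAPDH was 0.203 ± 0.018 and 0.275 ± 0.0262 (exact permutation p = 0.1). RNA quality by these measures thus moved with the group, with CDKL1 shRNA replicate 2 the highest for ACTB at 1.73, and its part in the results was not tested beyond the counts given beside them.

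In the CDKL1 shRNA arrays, most golgins, most YIP proteins, several COG subunits and several SNAREs were higher, and no TRAPP subunit on the list passed the test. Of 56 genes, 29 were called higher, 2 lower and 25 were not called (limma, Benjamini-Hochberg adjusted p under 0.05 over all genes), where 8.97% of all genes were called higher and 7.79% lower. The 29 rises ran from a log2 difference of 0.19 to one of 1.10, and their median was 0.37. Of the 29, 13 rose by a log2 difference of at least 0.4, where 2.09% of all genes did. The median change of all 56 was 0.21, beside -0.01 over all genes. The genes gave strong signals, 53 of the 56 lying above the median gene level, and 15.5% of the genes above that level were called higher.

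Of the 29 genes called higher, 22 kept the call when any 1 array was left out. GOLIM4 lost it whichever array was left out (highest limma adjusted p 0.139), GOLGA4 in every such fit but 1, that without CDKL1 shRNA replicate 2 (0.0979), and STX18 in every one but that without CDKL1 shRNA replicate 1 (0.106). GOLGA1 lost it without replicate 2 or 3 of either group (highest adjusted p 0.0923), YIPF6 without each of the CDKL1 shRNA arrays or control replicate 2 (0.0846), GOSR1 without CDKL1 shRNA replicate 3 or control replicate 2 (0.0524), and BET1L without CDKL1 shRNA replicate 3 (0.0593). The share of all genes called higher that kept the call in every such fit was not computed.

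By complex, 11 of 14 golgins rose and 1 fell, 4 of 7 COG subunits rose and 1 fell, 0 of 11 listed TRAPP subunits passed in either direction, 8 of 16 SNARE-group genes rose, and 6 of 8 YIP genes rose. The median change was 0.33 for golgins, 0.29 for COG, 0.00 for TRAPP, 0.20 for the SNARE group and 0.32 for YIP. The 3 CDKL1 shRNA arrays were alike: the median difference of the golgins from the control mean was 0.33, 0.36 and 0.34, and that of the TRAPP subunits was -0.03, -0.01 and 0.03. All 3 CDKL1 shRNA arrays lay above all 3 control arrays for 34 genes and below them for 6, where 18.1% and 17.6% of all genes did so. When the ACTB measure of RNA quality was added to the model as a covariate, 8 genes were still called higher (BLZF1, COG3, COG5, COG6, GOSR2, YIF1A, YIPF2 and YIPF5) and 0.601% of all genes were. In that fit all 29 changes stayed positive with a median of 0.38, while the median standard error went from 0.0486 to 0.0921. The ACTB measure was 1.40, 1.41 and 1.39 in the control and 1.52, 1.73 and 1.55 in the CDKL1 shRNA arrays. The groups did not overlap in it, so the fit separates RNA quality from the group poorly. With that covariate and without CDKL1 shRNA replicate 2, an alternative chosen after seeing the data, 0 members and 0 of 18132 genes (0.0%) were called higher or lower (limma), against 4 members and 658 genes at an unadjusted p under 0.05.

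**Figure D1:**
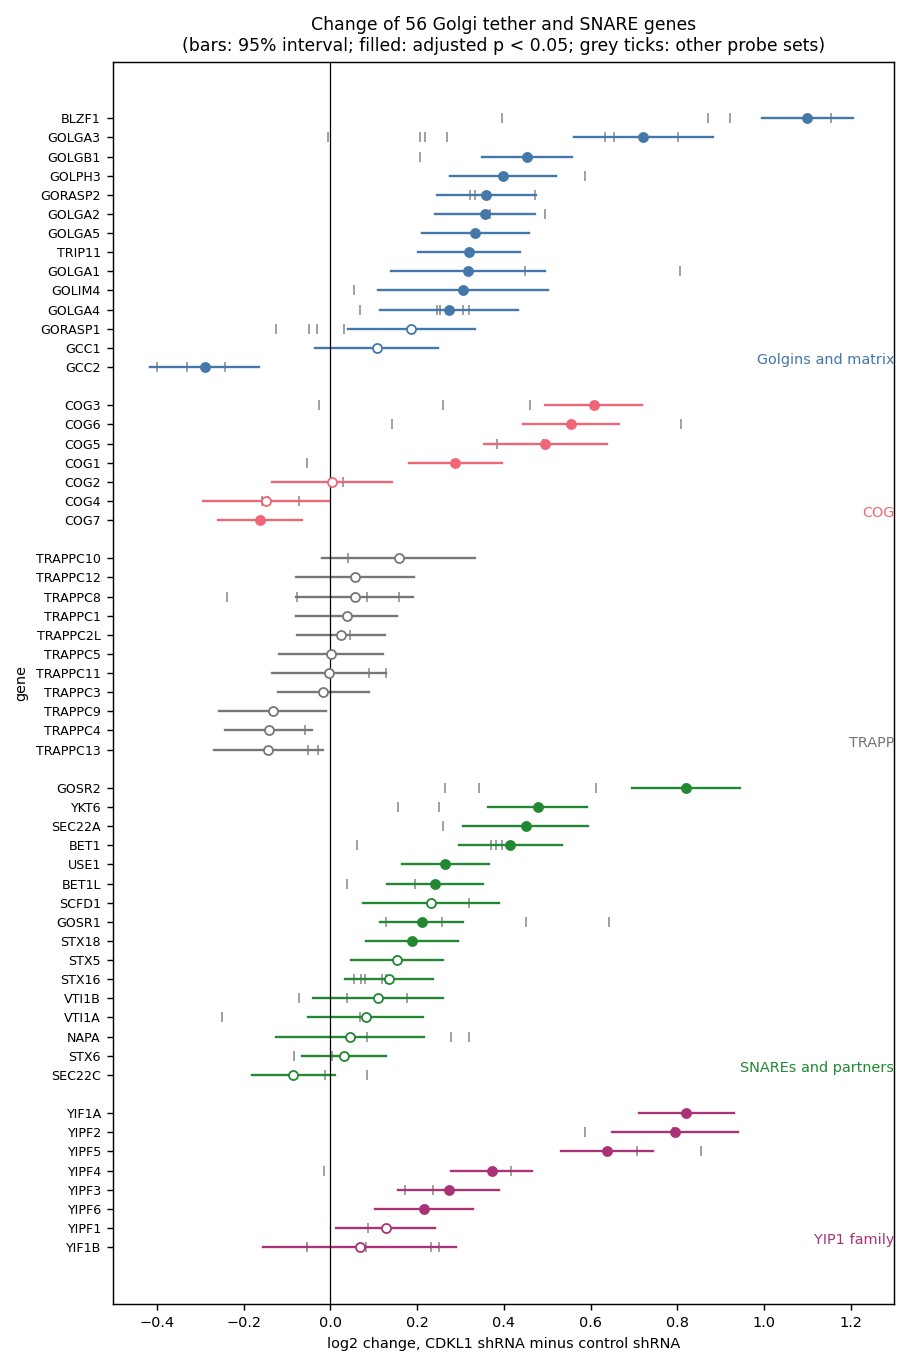
Log2 change of each of the 56 genes, CDKL1 shRNA minus control shRNA, grouped by complex. Points are the change of the probe set that stands for the gene, bars its 95% interval, filled points pass an adjusted p of 0.05, and grey ticks are the gene's other probe sets. BLZF1 lies farthest right at 1.10, and the 11 TRAPP subunits lie between -0.14 and 0.16.

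**Figure D2:**
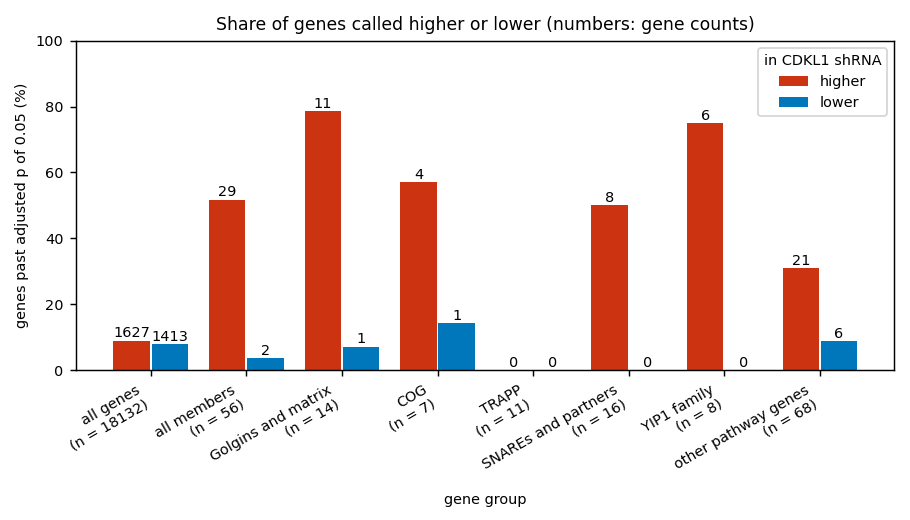
Percentage of genes called higher or lower in each group, with gene counts on the bars. The share called higher was 8.97% over all genes and ran from 0 of 11 listed TRAPP subunits to 11 of 14 golgins.

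Promoter sequence was not used to choose the genes. RefSeq windows of 250 bases before to 50 bases after the start (GRCh38.p14) were found for 52 of the 59 listed genes and for 14425 of the measured genes, and both strands were searched. The letters ACGTGGC, the core of the Golgi stress response element, were present in 11 of 52 listed genes (21.2%), in 4.85% of measured genes and in 3.95% of all genes with a window. It was present in 6 of 26 genes called higher (23.1%) and in 5 of 23 that were not called (21.7%). TGACGTGG, an unfolded protein response core that overlaps ACGTGGC by its last letters, was in 4 of 52 listed genes (7.69%) and 1.11% of measured genes. The E-box CACGTG was in 6 of 52 (11.5%) against 10.9% of measured genes, and the cAMP response element TGACGTCA in 3 of 52 (5.77%) against 3.11%. A match is a description of these letters and does not show that a factor binds there. The windows around ACGTGGC are shown for the 6 genes that rose, printed 5′ to 3′ on the gene's strand, with the match in capitals as ACGTGGC or its reverse complement GCCACGT.
GORASP2: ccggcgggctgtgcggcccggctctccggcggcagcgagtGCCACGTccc
SEC22A: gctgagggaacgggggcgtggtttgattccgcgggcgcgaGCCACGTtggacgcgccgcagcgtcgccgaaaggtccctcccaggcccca
GOLGA1: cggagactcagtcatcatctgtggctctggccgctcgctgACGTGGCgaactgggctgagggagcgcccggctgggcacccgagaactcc
GOLGA3: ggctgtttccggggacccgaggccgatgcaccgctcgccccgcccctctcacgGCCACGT
COG3: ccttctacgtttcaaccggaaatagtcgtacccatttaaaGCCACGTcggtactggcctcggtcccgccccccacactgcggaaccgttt
GOLGA5: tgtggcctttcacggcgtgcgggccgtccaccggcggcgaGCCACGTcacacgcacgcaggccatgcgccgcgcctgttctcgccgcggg
These lie at chr2:170929203-170929252 on the plus strand, chr3:123201847-123201936 (plus), chr9:124941215-124941304 (minus), chr12:132828855-132828914 (minus), chr13:45464812-45464901 (plus) and chr14:92794085-92794174 (plus), in the order printed. The letters start at position -10 from the gene start in GORASP2, at -181 in GOLGA1 and at 9, after the gene start, in GOLGA3. The 5 genes that hold the same letters and were not called are STX5, TRAPPC5, YIF1B, SCFD1 and TRAPPC2L, with changes of 0.15, 0.00, 0.07, 0.23 and 0.02. The first 3 of these are printed for comparison.
STX5: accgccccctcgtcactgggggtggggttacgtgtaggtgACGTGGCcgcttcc
TRAPPC5: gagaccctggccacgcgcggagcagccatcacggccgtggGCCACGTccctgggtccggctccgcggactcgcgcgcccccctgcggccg
YIF1B: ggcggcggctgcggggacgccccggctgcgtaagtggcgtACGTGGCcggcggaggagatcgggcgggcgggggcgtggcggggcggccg
These lie at chr11:62832052-62832105 (minus), chr19:7680671-7680760 (plus) and chr19:38315808-38315897 (minus).

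**Figure D3:**
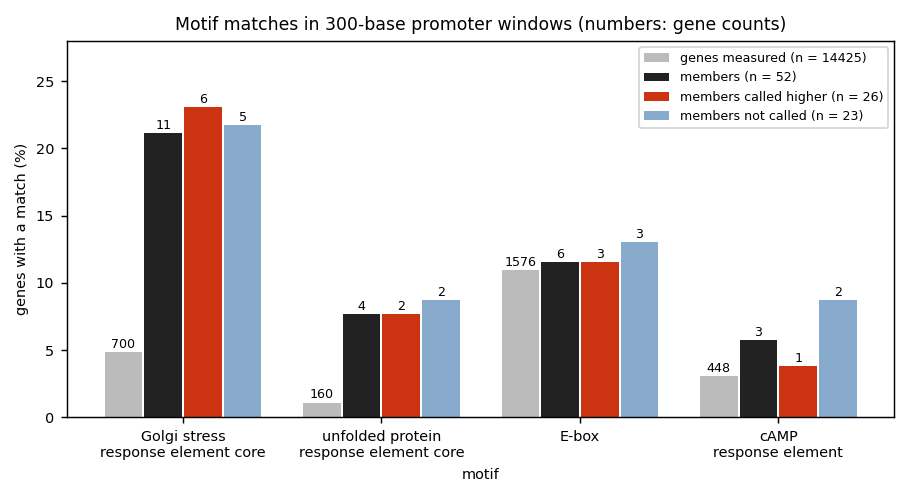
Percentage of genes with each motif in the 300-base promoter window, for measured genes, listed genes, those called higher and those not called, with gene counts on the bars. For the Golgi stress response element core the bars of called (23.1%) and uncalled (21.7%) genes stand close together, both above the 4.85% of measured genes.

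Among golgins the largest rise was that of BLZF1, a golgin of the medial Golgi that binds the stacking protein GORASP2. BLZF1 read 8.31, 8.34 and 8.27 in the control arrays and 9.44, 9.37 and 9.40 in the CDKL1 shRNA arrays. Every CDKL1 shRNA array was above every control array, and the rise was 1.10 (SE 0.04), or 2.14-fold (limma adjusted p = 6.62e-05). All 5 BLZF1 probe sets were called higher, from 0.40 to 1.15, the lowest being that of a probe set within the background range (mean 4.08). GOLGA3, a golgin that holds Golgi membranes near the centrosome through dynein, read 9.19, 9.44 and 9.33 in the control and 10.00, 10.05 and 10.07 in the CDKL1 shRNA arrays. The groups did not overlap, the rise was 0.72 (SE 0.07), and 4 of the 8 GOLGA3 probe sets were called higher over a range of -0.01 to 0.80. GOLGB1 (giantin), a very long golgin anchored in the membrane, read 9.88, 9.95 and 9.88 against 10.34, 10.39 and 10.34. Its 3 CDKL1 shRNA arrays were again the higher ones, by 0.45 (SE 0.04), and both of its probe sets were called.

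The other golgins that rose moved by 0.27 to 0.40. GOLPH3, which binds phosphatidylinositol 4-phosphate and retains glycosyltransferases, rose by 0.40 (SE 0.05), and the stacking protein GORASP2 (GRASP55) by 0.36 (SE 0.05). GOLGA2 (GM130) of the cis-Golgi rose by 0.36 (SE 0.05), the membrane-anchored GOLGA5 by 0.33 (SE 0.05), and TRIP11, a cis-Golgi golgin that senses membrane curvature, by 0.32 (SE 0.05). GOLIM4, a cycling membrane protein, rose by 0.31 (SE 0.08) and lay just inside the threshold at a limma adjusted p of 0.0471, with the nearest gene outside it, SCFD1, at 0.0558. GORASP1 (GRASP65), the other stacking protein, changed by 0.19 and was not called (adjusted p = 0.0893). That was the highest of its 5 probe sets, of which 2 were positive, with a range of -0.13 to 0.19 and a median of -0.03.

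The 4 golgins with a GRIP domain, a module that targets golgins to the trans-Golgi, went in different directions. GOLGA1 rose by 0.32 (SE 0.08) and GOLGA4 by 0.27 (SE 0.07), while GCC1 had a change of 0.11 with an interval of -0.04 to 0.25 and was not called. GCC2 read 11.90, 12.03 and 12.01 in the control and 11.74, 11.69 and 11.64 in the CDKL1 shRNA arrays. All 3 CDKL1 shRNA arrays were below the controls, and GCC2 fell by 0.29 (SE 0.05, limma adjusted p = 0.0117). All 4 GCC2 probe sets had a negative change and 3 were called lower. Without CDKL1 shRNA replicate 3 the adjusted p of GCC2 was 0.05002, just outside the threshold.

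COG is an octamer of lobe A (COG1 to COG4) and lobe B (COG5 to COG8) that tethers vesicles returning glycosylation enzymes within the Golgi. COG3 read 7.24, 7.26 and 7.33 in the control and 7.85, 7.86 and 7.93 in the CDKL1 shRNA arrays, a rise of 0.61 (SE 0.05). COG5 read 9.15, 9.25 and 9.27 against 9.80, 9.63 and 9.72, a rise of 0.49 (SE 0.06). COG6 read 9.46, 9.44 and 9.36 against 10.01, 9.93 and 9.99, a rise of 0.55 (SE 0.05). For each of these 3 subunits every CDKL1 shRNA array was higher than every control array, and the limma adjusted p-values were 0.000425, 0.00233 and 0.000625. COG5 was called on 3 of 3 probe sets, COG6 on 2 of 3 and COG3 on 2 of 4. The uncalled COG6 probe set, and 1 called and 1 uncalled probe set of COG3, lay within the background range.

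The rest of the complex did not follow one direction. COG1 rose by 0.29 (SE 0.05). Its second probe set, with a mean of 4.64 within the background range, changed by -0.05. COG2 changed by 0.00 (interval -0.13 to 0.14) and COG4 by -0.15, and neither was called. COG7 read 7.79, 7.78 and 7.76 in the control and 7.59, 7.65 and 7.60 in the CDKL1 shRNA arrays. Its CDKL1 shRNA arrays all lay below the controls and it fell by 0.16 (SE 0.04, limma adjusted p = 0.0376), a call that was lost when any 1 array was left out. Rises and absent calls were thus found in lobe A (2 of 4 higher), and rises and a fall in lobe B (2 of 3 higher, 1 lower).

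**Figure D4:**
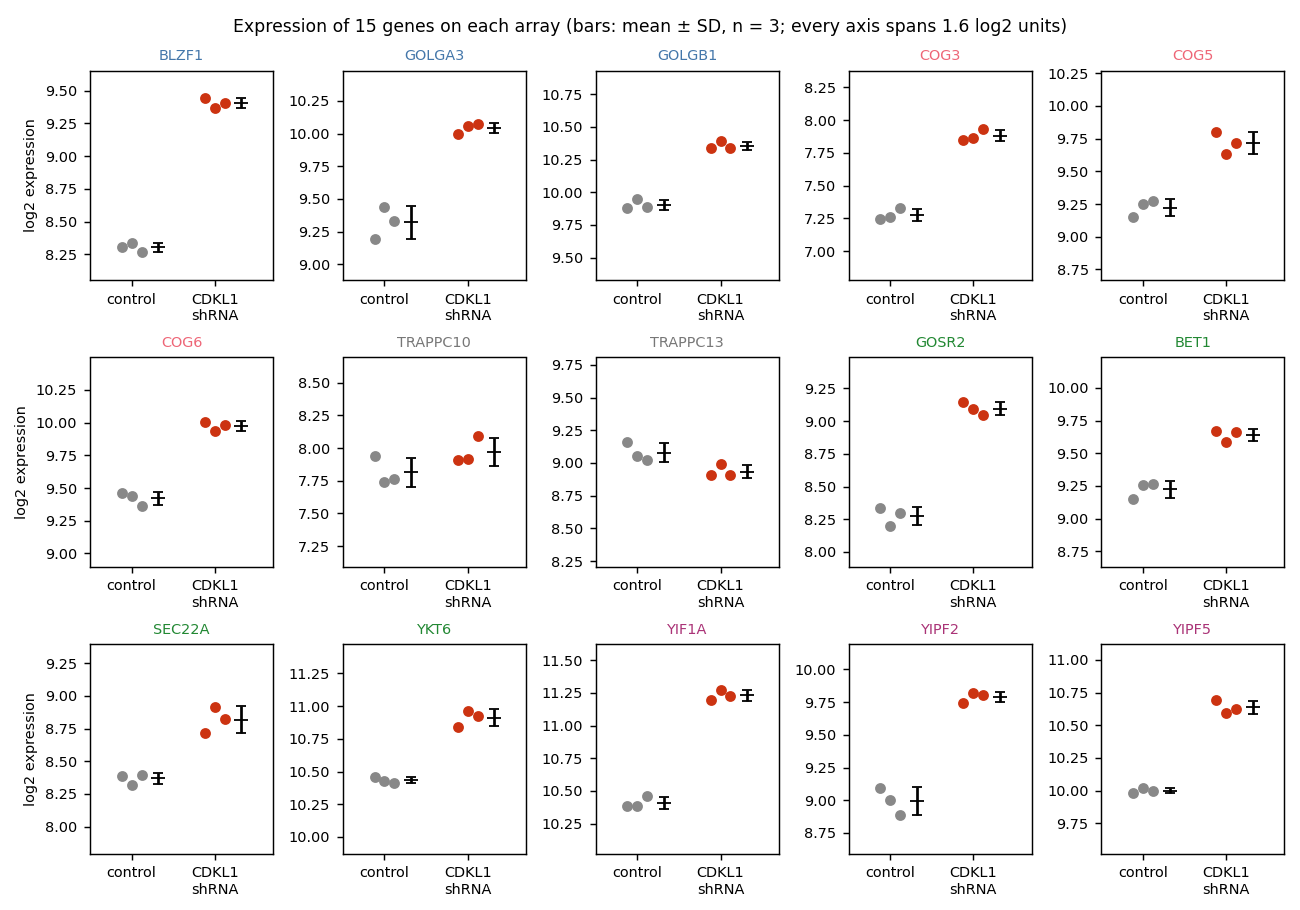
Log2 expression of 15 genes on each of the 6 arrays, with bars for the mean ± SD of 3 arrays per group and every axis spanning 1.6 log2 units. The groups stand apart for all genes shown except TRAPPC10, and TRAPPC13 is the one with the CDKL1 shRNA arrays below the controls.

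TRAPP subunits form a common core, to which others are added in the TRAPPII complex of late Golgi traffic and the TRAPPIII complex of ER-to-Golgi traffic and autophagy. No listed subunit of the core (0 of 5), of TRAPPII (0 of 2) or of TRAPPIII (0 of 4) passed the test. Of these 11, 3 had an unadjusted p under 0.05, as did 29.8% of all genes. Changes ran from -0.14 to 0.16, and each subunit's own 95% interval lay within -0.27 to 0.33, that of TRAPPC3 running from -0.12 to 0.09. TRAPPC10, a TRAPPII subunit, read 7.94, 7.74 and 7.76 in the control and 7.91, 7.91 and 8.09 in the CDKL1 shRNA arrays. The groups overlapped, and the change was 0.16 (SE 0.08, limma adjusted p = 0.215). TRAPPC13, a TRAPPIII subunit, read 9.16, 9.05 and 9.02 against 8.91, 8.99 and 8.91. Its CDKL1 shRNA arrays were all the lower ones, with a change of -0.14 (SE 0.05, adjusted p = 0.120) that did not pass. The smallest adjusted p among the listed subunits was that of the core subunit TRAPPC4, 0.0627, at a change of -0.14. TRAPPC5 and TRAPPC2L of the core, which hold the ACGTGGC letters, changed by 0.00 and 0.02. The absence of calls depended on the setting for 3 subunits, each of which was then called lower. TRAPPC4 was called with an intensity trend in the prior variance, after a further quantile normalisation and among genes above the median level, where 10.4%, 9.32% and 19.6% of the genes tested were called lower. TRAPPC13 was called with the trend and above the median level, and TRAPPC9 without control replicate 1, where 5.98% of all genes were. A second TRAPPC8 probe set, whose mean of 3.90 lay within the background range, changed by -0.24 and was called lower over all probe sets (limma adjusted p = 0.0407), while the one that stands for TRAPPC8 changed by 0.06. The counts for the core, TRAPPII and TRAPPIII cover only the listed subunits, and TRAPP subunits outside the list were not all without a call. TRAPPC2 was called higher by 0.26 (SE 0.07), and TRAPPC6A and TRAPPC6B lower by 0.20 (SE 0.04) and 0.40 (SE 0.06). TRAPPC14 changed by 0.15 and was not called. Of all genes, 8.97% were called higher and 7.79% lower. The difference between TRAPP and the other complexes was not tested.

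The SNAREs that act between ER and Golgi include STX5, GOSR2 and BET1, which assemble into a fusion bundle with SEC22B, which was not analysed here. GOSR2 (membrin) read 8.33, 8.20 and 8.30 in the control and 9.15, 9.09 and 9.05 in the CDKL1 shRNA arrays, a rise of 0.82 (SE 0.05) or 1.77-fold. That probe set carries the suffix _x, which marks probes that can bind related transcripts, and the change was 0.26 (still called) when _s and _x probe sets were left out. BET1 read 9.15, 9.26 and 9.27 against 9.67, 9.59 and 9.66, a rise of 0.41 (SE 0.05). Neither gene's groups overlapped, and GOSR2 was called on 5 of 5 probe sets, from 0.26 to 0.82, and BET1 on 4 of 5, from 0.06 to 0.41. Their partner STX5 had a change of 0.15 with an interval of 0.05 to 0.26 and was not called (limma adjusted p = 0.0606), although its CDKL1 shRNA arrays were all above the controls. SEC22A, a relative of the ER-Golgi SNARE SEC22B, read 8.39, 8.32 and 8.40 against 8.71, 8.92 and 8.83. Its CDKL1 shRNA arrays were the higher ones, by 0.45 (SE 0.06), while its relative SEC22C changed by -0.09 and was not called.

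Within the Golgi, STX5 also pairs with GOSR1, BET1L and YKT6, and all 3 of these partners rose. YKT6, a SNARE held to membranes by lipid rather than a membrane span, read 10.46, 10.43 and 10.41 in the control and 10.84, 10.97 and 10.93 in the CDKL1 shRNA arrays. The groups did not overlap and the rise was 0.48 (SE 0.05). GOSR1 rose by 0.21 (SE 0.04) and BET1L by 0.24 (SE 0.05). STX18 and USE1, which serve vesicles returning from the Golgi to the ER, rose by 0.19 and 0.27 (SE 0.04 each). Of the listed SNAREs that receive vesicles from endosomes, STX6, STX16 and VTI1A, 0 of 3 were called, with changes of 0.03 to 0.14. SCFD1, which binds STX5 and guides SNARE assembly, changed by 0.23 (adjusted p = 0.0558), and NAPA, the adaptor that recruits the SNARE-disassembling ATPase NSF, by 0.04. That was the lowest of the 4 NAPA probe sets, all positive and not called, with a median of 0.18 and a highest change of 0.32. A second SCFD1 probe set changed by 0.32 and was called higher over all probe sets (limma adjusted p = 0.0399). With a fold of at least 1.2 required, 5 rather than 8 genes of the SNARE group were called higher, beside 5.31% of all genes. Without CDKL1 shRNA replicate 3 the count was also 5, beside 4.94% of all genes.

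YIF1A and YIPF5 form a membrane complex that cycles between ER and Golgi, and both rose. YIF1A read 10.39, 10.38 and 10.46 in the control and 11.19, 11.27 and 11.23 in the CDKL1 shRNA arrays, a rise of 0.82 (SE 0.05) or 1.77-fold, on its only probe set. YIPF5 read 9.98, 10.02 and 9.99 against 10.69, 10.60 and 10.62, a rise of 0.64 (SE 0.05). YIPF2 read 9.10, 9.00 and 8.89 against 9.74, 9.82 and 9.81, a rise of 0.80 (SE 0.06). In all 3 genes every CDKL1 shRNA array exceeded every control array, and YIPF2 and YIPF5 were called on 3 of 3 probe sets each. YIPF4 rose by 0.37 (SE 0.04), its binding partner YIPF3 by 0.27 (SE 0.05) and YIPF6 by 0.22 (SE 0.05). YIF1B, the close relative of YIF1A, changed by 0.07 with an interval of -0.16 to 0.29, and YIPF1 by 0.13, and neither was called. Of the 6 YIF1B probe sets, with changes of -0.05 to 0.25, 2 were called higher, as were 7.43% of all probe sets.

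**Figure D5:**
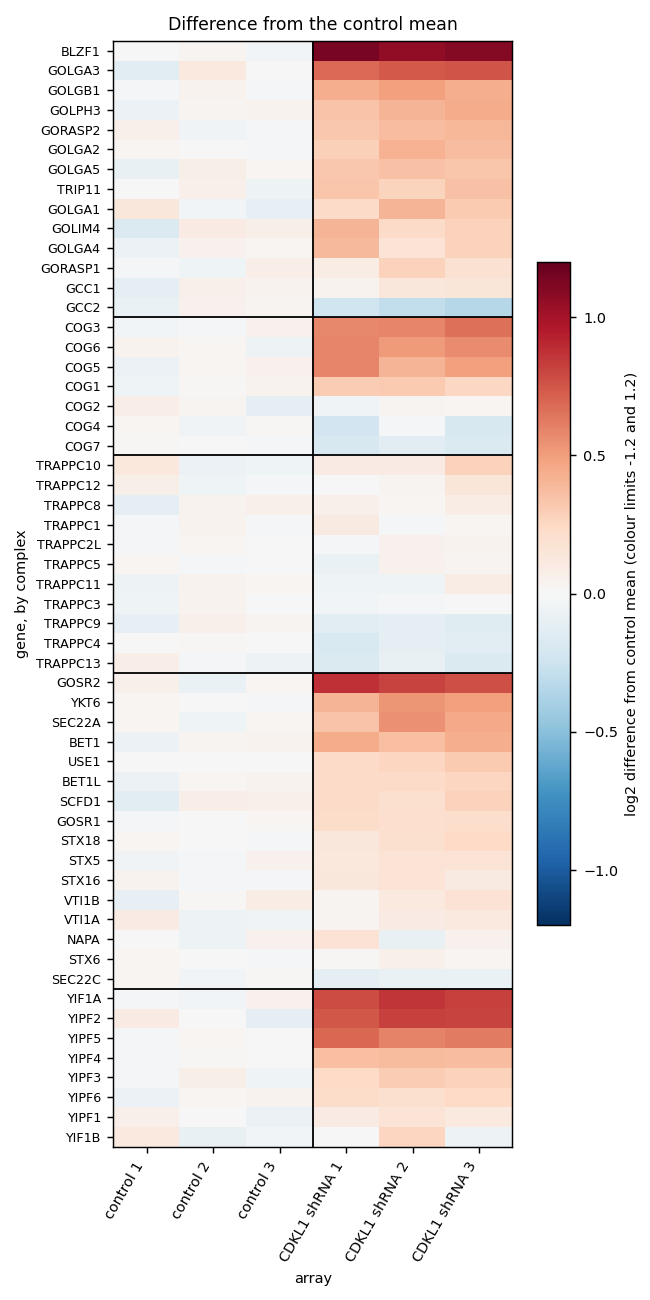
Difference of each array from the control mean (log2, colour) for the 56 genes, grouped by complex, with the control arrays left of the line and the CDKL1 shRNA arrays right of it. The BLZF1, GOSR2, YIF1A, YIPF2 and GOLGA3 rows are strongly coloured on all 3 CDKL1 shRNA arrays, and the TRAPP rows stay near 0.

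Probe sets that were not chosen to stand for a gene come from the same arrays and so are no separate evidence. Of the 108 probe sets not chosen, 84 had a positive change, where 47.3% of all probe sets did. Of the 108, 44 were called higher and 3 lower, against 7.43% and 5.34% of all probe sets. With the chosen ones included, 131 of 164 were positive, 72 were called higher and 4 lower. Of the 24 genes called higher that had more than 1 probe set, 20 had only positive changes and 20 had a second probe set called higher. These genes were picked by a call on 1 of their probe sets. The like share among all genes called higher was not computed. GOLGA1 was called higher on 3 of 3 probe sets, at 0.32 to 0.81. Several changes moved by more than 1.5 times when a gene's probe sets were averaged instead of 1 being chosen. GOLGA3 was then 0.44, COG3 0.32 and YKT6 0.29, all still called, and GOLGA1 and GOSR1 were larger at 0.52 and 0.34. COG1 at 0.12, GOLIM4 at 0.18 and BET1L at 0.16 were no longer called. Without _s and _x probe sets YIPF3 was 0.17 and no longer called, and with the ACTB covariate GOLGA1 was 0.17, GOLGA4 0.45 and SEC22A 0.30, none of them called.

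Other genes of the same traffic steps were taken from a list of 76, of which 68 were measured, 21 were called higher and 6 lower, with a median change of 0.10, where 8.97% of all genes were called higher and 7.79% lower. The genes that recruit golgins to membranes included ARL1, SYS1, MON2, RAB6A and RAB1A, which all rose (5 of 6 measured). ARL1, a GTPase that docks some GRIP golgins, rose by 0.54 (SE 0.04), and MON2, a trans-Golgi scaffold, by 0.62 (SE 0.05). Of 10 further golgins and Golgi matrix proteins 5 rose, among them TMF1, a golgin that binds RAB6, by 0.67 (SE 0.07) and GOLPH3L, a paralogue of GOLPH3, by 0.42 (SE 0.05). Of 8 further Golgi membrane proteins 2 rose, among them GOLT1B by 0.74 (SE 0.05). VPS53 of GARP, the tether for vesicles from endosomes, rose by 0.47 (SE 0.05) as 1 of 4 subunits. Of 4 TRAPP subunits outside the main list, 1 rose and 2 fell. Of 15 SNAREs outside it, 3 rose (STX12, VAMP7 and VAMP8) and 4 fell (STX3, STX10, STX17 and VAMP4). The exocyst, a tether at the plasma membrane, had 1 of 8 subunits higher.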

How the data were processed

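Total RNA was labelled with biotin and hybridised to Affymetrix arrays, per the labels' protocols. The authors deposited log2 expression values made with RMA, per the submitters' processing notes; its version was not given in the sources used. RMA normalises between arrays on the premise that most genes do not change, and it compresses changes of dim probe sets.

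Of 49395 probe sets, 44988 had 1 gene symbol, 1832 several, 2473 none and 102 were controls. Genes were tested with limma 3.58.1 in R 4.3.3 (lmFit, eBayes, group as the only term, two-sided), adjusted by Benjamini-Hochberg over 18132 genes at 0.05, without a filter on dim genes. The fit was tested on simulated data. Tables and figures used Python 3.11.15, pandas 2.3.3 and matplotlib 3.10.9. The arrays' number, 3 per group, limits precision, and since separate cultures are not named, p-values reflect only the variation among these samples, some of it perhaps technical.

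The members, the other gene lists, the motifs and the alternatives were chosen with earlier results of these data known. Members past the threshold with an absolute log2 change of at least 0.4, or the 2 with the largest change where a complex had fewer, are given array by array. The members called lower were added to these after their values were seen. Other pathway genes are named with values under the same 0.4 limit, except the TRAPP subunits outside the list, which were added after their values were seen. Alternatives were a replicate block, leaving out each array, quantile normalisation, subtraction of array medians, a level filter, other choices of probe set, an intensity trend, an ACTB covariate and a 1.2-fold limit.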

Additional observations from a re-analysis of the deposited data

How the results depend on the processing

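Of the 29 members called higher, 22 were called in each of the 6 fits that left out 1 array, and 8 under all 14 processing alternatives that refit each gene, with 0 changes of sign. The like shares among all genes called higher were not computed. Leaving out 1 array gave 22 to 26 members higher and 0 to 2 lower, where 4.94% to 7.25% of all genes were higher and 4.07% to 5.98% lower. The median change of the members was 0.198 to 0.232, and GOLIM4 was called in none of those fits. The ACTB covariate left 8 higher and 0 lower, at 0.601% and 0.607% of all genes. The number called lower, 2 (7.79% of all genes), was 1 after subtraction of array medians (6.43%) and without _s and _x probe sets (6.63%). It was 4 with an intensity trend (10.4%) and 5 of 53 among genes above the median level (19.6% of those genes). At 1.2-fold it was 1, for which no share of all genes is given. Uncalled genes outside TRAPP also gained calls. STX5 and SCFD1 were called higher for the mean of all probe sets (8.96% of all genes), and SCFD1 without _s and _x probe sets (7.6%). GORASP1, STX16 and SCFD1 were called higher with the intensity trend (12.7%). Among genes above the median level these genes and YIPF1 were called higher (24.4%) and COG4 lower (19.6%). The median change of the members, 0.21, was 0.181 after a further quantile normalisation and 0.181 for the mean of all probe sets. With the covariate and without CDKL1 shRNA replicate 2 (chosen after seeing the data), 0 were higher and 0 lower, the median was 0.176, and GOLGA1, STX18 and YIPF3 turned to -0.14, -0.12 and -0.10, none of them called. The cause of these shifts was not tested. Same-numbered samples had deviations correlated at -0.03, -0.12 and 0.07, and different-numbered ones at -0.10 to 0.12. No shared effect of the replicate number was thus seen, but so few arrays cannot exclude that samples were prepared in pairs. With the replicate block 23 members were higher and 1 lower, against 5.65% and 4.3% of all genes. The differences in 3′ minus 5′ kept their sign without each array, at 0.132 to 0.239 for ACTB and 0.0611 to 0.0866 for GAPDH. Signal over background does not limit these genes, none of which lies within the range of the background controls, unlike CDKL1.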
